A study of Homo sapiens with 6 samples.

Results

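Cadherins, catenins and desmosomal proteins hold epithelial cells together, and 10 genes of this machinery are described here across 2 breast cancer cell lines. The genes were taken by name, with earlier results of these data known, so counts and medians over them are descriptions. They are the classical cadherins CDH1, CDH2, CDH3 and CDH11, the catenins JUP and CTNNB1, the desmosomal cadherins DSC2 and DSG2, and the desmosomal plaque proteins DSP and PKP3. All 10 were among the 13022 genes tested. They carry 23 annotated probes, of which 18 were detected on at least 2 of the 6 arrays. Classical cadherins are calcium-dependent receptors that bind the same cadherin on the next cell, and their tails bind beta-catenin or plakoglobin, which reach the actin cytoskeleton through alpha-catenin. Desmosomes are a second kind of junction, in which desmocollins and desmogleins are tied by plakoglobin, plakophilins and desmoplakin to keratin filaments. Loss of E-cadherin, with gain of mesenchymal cadherins, is a known mark of carcinoma cells that have left the epithelial state.

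RNA was read as biotin-labelled cRNA on Illumina bead arrays. MDA-MB-231, a mesenchymal-like line without hormone receptors, has 2 arrays carrying the hairpin shRNA-1 and 2 control (shCtrl) arrays. MDA-MB-453, a luminal-like line, has 1 array carrying shRNA-3 and 1 control array. Both hairpin arms are labelled as knock-down of SETDB1, a histone H3 lysine 9 methyltransferase, all 6 arrays carry the same batch label, and the cells were grown in DMEM with fetal bovine serum. Cell line and hairpin change together and cannot be told apart, and the labels say neither whether replicates were separate cultures nor whether cells were a clone, so the spread behind each p-value may be technical. The question the design poses is which genes differ between the knockdown arm and the control arm of each line.

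The precision is limited by the number of arrays. Between 19230 and 21238 of 48107 probes were detected per array, and replicates correlated at 0.990 and 0.993 across genes, against 0.919 to 0.931 between the arms of MDA-MB-231. SETDB1 stood at 7.40 and 7.42 on the MDA-MB-231 control arrays and 7.29 and 7.21 on the shRNA-1 arrays (difference -0.16 ± 0.16 SE; limma adjusted p = 0.493). Its MDA-MB-453 levels were 8.98 on the control and 8.73 on the shRNA-3 array. The arms are therefore named by their labels. All 10 of 10 MDA-MB-231 markers listed for the line were detected on each of its 4 arrays. Their summed intensity went from 50837 and 55068 on the controls to 77457 and 78789 on the shRNA-1 arrays. Of the 10, S100A4, EPHA2 and PLAU rose and 0 fell, with S100A4 going from 6.11 and 5.40 to 14.49 and 14.37. Of 10 MDA-MB-453 markers, 5 were detected on each MDA-MB-231 control array and 6 on each shRNA-1 array, and their summed intensity went from 1803 and 1890 to 8999 and 8100, against 38437 and 45426 in MDA-MB-453. PIP, RAB25 and TFAP2B of that list stayed below detection on all 4 MDA-MB-231 arrays. Relative to arrays below detection SPDEF was at least 24.2-fold and AGR2 at least 20.1-fold higher in the shRNA-1 arm and FOXA1 at least 11.2-fold lower, while KRT19, detected on every array, rose by 4.48. Levels below are normalised log2 intensities, a probe is called detected at a detection p below 0.05, and levels of different probes are not set against each other.

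On the tested probes CDH11 and JUP had the largest differences of the 10 genes in MDA-MB-231. The other probes of JUP rose by 2.93 and 2.22. CDH11 and CDH1 have 1 annotated probe each, so their rises could not be read on another probe. DSP, DSC2 and DSG2 rose by less than JUP on their tested probes, and their other kept probes did not pass the test. In the shRNA-1 arm CDH11, JUP, DSP, CDH1, DSC2 and DSG2 rose, which is 6 of the 10 genes, while 19.5% of all tested genes rose. None of the 10 fell, against 19.7% of all tested genes (limma, adjusted p below 0.05). The median difference of the 10 genes was 1.08 on the log2 scale and that of all 13022 genes -0.01. CDH2, CDH3, CTNNB1 and PKP3 did not pass the test. The arms did not overlap for 8 of the 10 genes, but with 2 arrays against 2 the same held for 69.0% of all genes. Exact permutation of 2 against 2 arrays cannot reach a p below 0.333 for any gene, so smaller p-values rest on the spread that limma shares between genes.

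**Figure D1:**
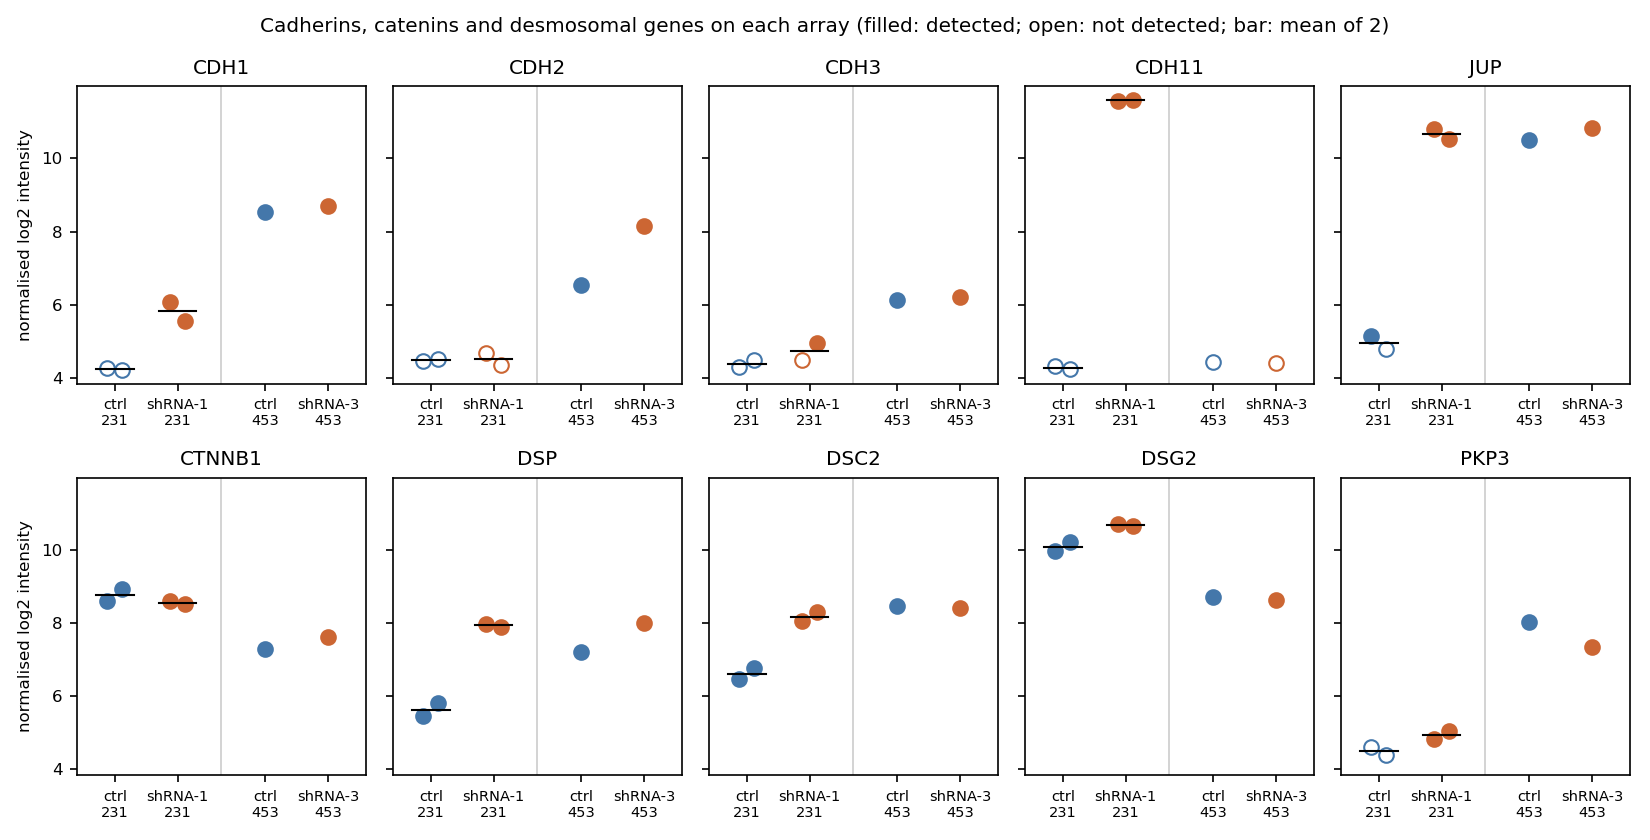
Normalised log2 intensity (y axis) of the tested probe of each gene on each of the 6 arrays, with filled points for detected and open points for not detected, and a bar for the mean of the 2 MDA-MB-231 arrays of an arm. CDH11 lies near 4.3 on both MDA-MB-231 controls and at 11.56 and 11.61 on both shRNA-1 arrays, and JUP in the shRNA-1 arm lies at the level of MDA-MB-453.

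CDH11, a type II cadherin known from mesenchymal cells and osteoblasts, was not detected on either MDA-MB-231 control array and was strong on both shRNA-1 arrays. It stood at 4.32 and 4.23 on the controls and at 11.56 and 11.61 on the shRNA-1 arrays. Before any normalisation its probe read 39.7 and 35.2 intensity units on the controls and 2974.7 and 2964.6 on the shRNA-1 arrays. Against the detection floor of the control arrays it was at least 110.0-fold higher (limma adjusted p = 1.46e-07). On the MDA-MB-453 arrays CDH11 stood at 4.43 and 4.40 and was not detected on either. High CDH11 was therefore found on both shRNA-1 arrays and on none of the other 4. Fibroblast and stromal markers were read beside it, since CDH11 is also a stromal gene: 3 of 10 were detected on each MDA-MB-231 array, and their summed intensity was 297 and 306 on the controls and 480 and 509 on the shRNA-1 arrays. COL1A2, COL3A1, LUM, FAP, THY1 and POSTN stayed below detection on all 4 of these arrays. PDGFRB rose at least 2.69-fold and ACTA2 also rose, while the summed intensity of 9 blood and endothelial markers went from 257 and 320 to 1788 and 1883, with CD14 up by 4.05 and PECAM1 by 3.13. CD3E, VWF, KDR and CDH5 of that list had no detected signal in either MDA-MB-231 arm. The part of other cells in the CDH11 rise was not tested.

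CDH1, the E-cadherin of epithelial junctions, also went from not detected to detected in MDA-MB-231, but to a level below that of MDA-MB-453. It stood at 4.26 and 4.22 on the control arrays and at 6.08 and 5.57 on the shRNA-1 arrays, while the control and the shRNA-3 array of MDA-MB-453 read 8.55 and 8.70. All 4 detected arrays lay above both undetected ones. The shRNA-1 arm was at least 2.03-fold above the control floor (limma adjusted p = 5.24e-04), with a fitted difference of 1.59 ± 0.20 (SE, n = 2 and 2). CDH1 in the shRNA-1 arm stayed below both MDA-MB-453 arrays.

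CDH2, the N-cadherin often gained by mesenchymal cells, was not detected on any of the 4 MDA-MB-231 arrays, where it read 4.45, 4.52, 4.69 and 4.35, while it was detected on both MDA-MB-453 arrays. There it stood at 6.54 on the control and 8.15 on the shRNA-3 array, a difference of 1.60, or 3.04-fold, between 1 array and 1 array with no replicate check. The CDH2 probe passed the detection filter only through the MDA-MB-453 arrays. CDH2 was the only one of the 10 genes at 2-fold or more in MDA-MB-453, where 1.51% of all genes were higher and 1.56% lower by that much. CDH3, the P-cadherin of basal epithelium, read 4.29 and 4.49 on the MDA-MB-231 controls and 4.50 and 4.96 on the shRNA-1 arrays, with detection on only the last (difference 0.34 ± 0.20; limma adjusted p = 0.229; 95% confidence interval -0.13 to 0.80). In MDA-MB-453 it was detected at 6.13 and 6.21. Neither CDH2 nor CDH3 had a level above background on the MDA-MB-231 controls from which a fall could be read.

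**Figure D2:**
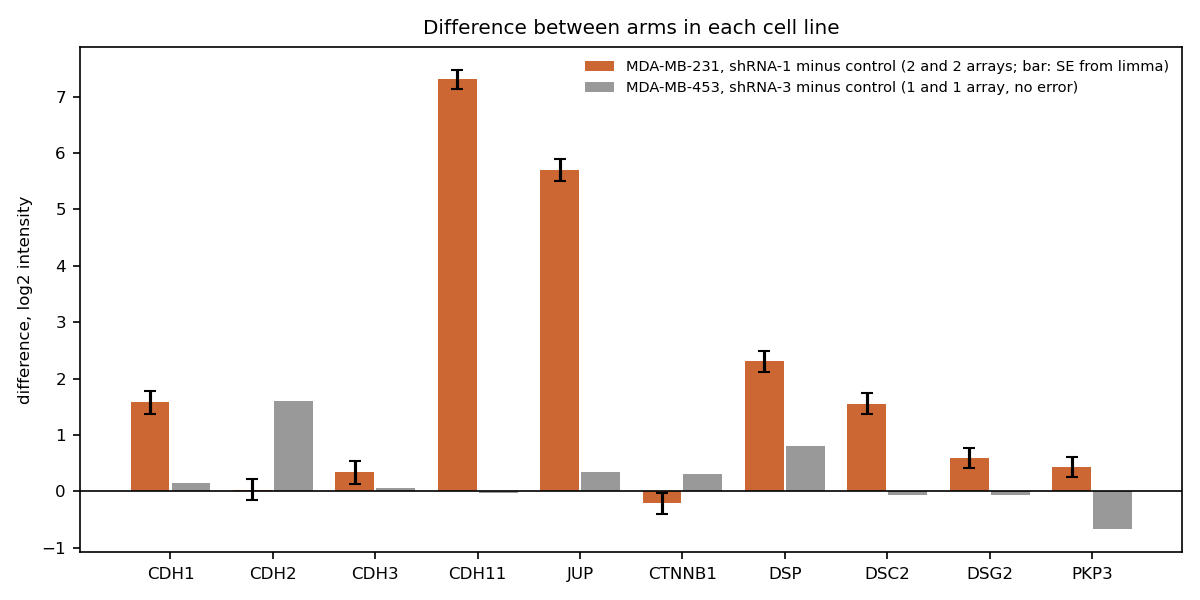
Difference in log2 intensity (y axis) between the hairpin arm and the control arm for each gene, in MDA-MB-231 (bars with standard errors from limma, 2 and 2 arrays) and in MDA-MB-453 (1 and 1 array, no error). CDH11 at a fitted 7.31, from controls below detection, and JUP at 5.70 exceed the other MDA-MB-231 bars, and CDH2 at 1.60 is the tallest MDA-MB-453 bar.

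JUP encodes plakoglobin, or gamma-catenin, the plaque protein shared by adherens junctions and desmosomes, and rose on each of its 3 probes in MDA-MB-231. On the tested probe it stood at 5.15 and 4.79 on the controls and at 10.79 and 10.54 on the shRNA-1 arrays, a rise of 5.70 ± 0.19, or 52.0-fold (limma adjusted p = 4.62e-07). The first control array was detected and the second was not, so the size of the fold rests in part on background. Both MDA-MB-453 arrays, at 10.50 and 10.84, lay in the same range as the shRNA-1 arrays. The other probes of JUP rose as well, from 4.72 to 7.65 and from 4.40 to 6.62 (fitted differences 2.93 ± 0.20 and 2.22 ± 0.18; limma adjusted p = 1.39e-05 and 4.05e-05 over 17668 probes). All 3 probes put the shRNA-1 arrays above the controls with no overlap. Their sizes are not set against each other, since the last probe was not detected on either control and gives only a bound, at least 3.53-fold.

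CTNNB1 encodes beta-catenin, which like plakoglobin binds cadherin tails in adherens junctions and also carries Wnt signals to the nucleus, and it did not pass the test. On its tested probe it stood at 8.59 and 8.94 on the MDA-MB-231 controls and at 8.60 and 8.52 on the shRNA-1 arrays, and the arms overlapped. The difference was -0.21 ± 0.18 (limma adjusted p = 0.421; 95% confidence interval -0.63 to 0.21). The interval's upper bound for this probe is thus a rise of 0.21. The second probe detected on all 6 arrays gave -0.38 ± 0.20 (limma adjusted p = 0.165), and another, detected on 2 arrays, gave -0.16. The other 4 of its 7 probes were not detected on any array and say nothing of its level. In MDA-MB-453 CTNNB1 stood at 7.30 and 7.62.

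The plaque protein DSP, desmoplakin, which anchors keratin filaments to the desmosome, rose by 2.31 ± 0.18, or 4.94-fold (limma adjusted p = 4.09e-05). It stood at 5.46 and 5.81 on the MDA-MB-231 controls, at 7.98 and 7.90 on the shRNA-1 arrays, while the control and the shRNA-3 array of MDA-MB-453 read 7.21 and 8.01. The shRNA-1 arrays lay above both controls and between the MDA-MB-453 arrays. Only this probe carried the rise: a dim second probe read 4.92 and 4.95 on the controls and 5.12 and 4.92 on the shRNA-1 arrays (difference 0.08; limma adjusted p = 0.756), and the remaining probe was not detected on any array. PKP3, a plakophilin that binds desmoplakin and the desmosomal cadherins, read 4.61 and 4.38 on the controls and 4.83 and 5.04 on the shRNA-1 arrays. It was detected on neither control and on both shRNA-1 arrays, at least 1.10-fold higher, and did not pass the test (difference 0.44 ± 0.18; limma adjusted p = 0.0848). MDA-MB-453 held PKP3 at 8.03 on the control and 7.35 on the shRNA-3 array, a difference of -0.67.

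Of the desmosomal cadherins, DSC2, desmocollin 2, rose by 1.56 ± 0.19, or 2.94-fold (limma adjusted p = 3.71e-04). It stood at 6.47 and 6.77 on the controls, 8.05 and 8.30 on the shRNA-1 arrays, and 8.47 and 8.41 in MDA-MB-453. Both shRNA-1 arrays lay above both controls and below both MDA-MB-453 arrays. The other DSC2 probe differed by 0.54 ± 0.19 and missed the threshold (limma adjusted p = 0.052). DSG2, desmoglein 2, was already strong in the MDA-MB-231 controls, at 9.96 and 10.22, and stood at 10.71 and 10.66 on the shRNA-1 arrays, a rise of 0.59 ± 0.18, or 1.51-fold (limma adjusted p = 0.0267). This call is the weakest of the 6. It was lost without control replicate 1 (0.46), without control replicate 2 (0.72), without shRNA-1 replicate 1 (0.56), under median scaling (0.43) and on the second probe (0.46 ± 0.18), with adjusted p-values over 14 alternatives from 0.0105 to 0.186. In MDA-MB-453 DSG2 stood at 8.71 and 8.64.

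**Figure D3:**
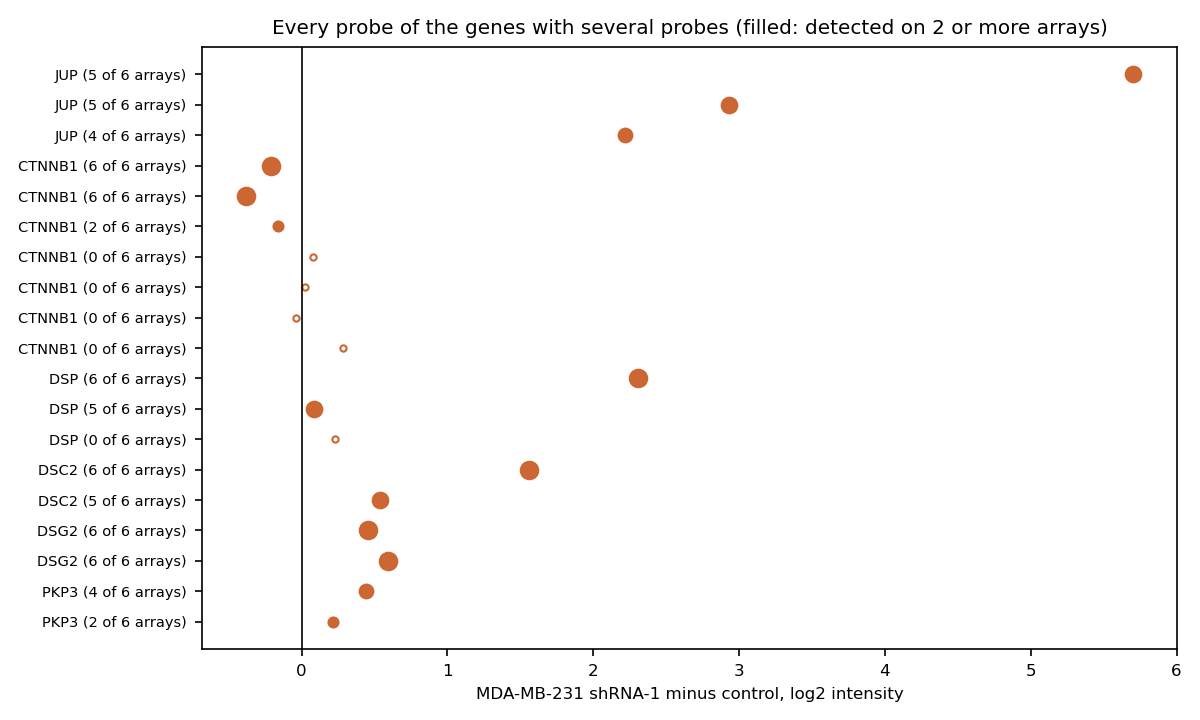
Difference between the MDA-MB-231 arms in log2 intensity (x axis) for every probe of the 6 genes with several probes (y axis), with filled points for probes detected on 2 or more arrays, larger points for more arrays, and open points for probes never detected. The 3 JUP probes lie at 2.22, 2.93 and 5.70, and of the DSP probes only that at 2.31 lies away from 0.

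Promoters of JUP, DSP, DSC2 and DSG2, which rose, are shown because E-boxes of the letters CACCTG, or CAGGTG on the other strand, are known to bind the Snail and ZEB repressors of epithelial genes, and ZEB1 and SNAI2 are among the genes measured below. Each sequence runs from 250 bases before to 50 bases after an annotated start (RefSeq, GRCh38.p14), 5′ to 3′ on the strand of the gene, with CACCTG and CAGGTG in capitals. CTNNB1, which did not pass the test, is given for comparison. CDH1, CDH3, CDH11 and PKP3 had no window in the table used here, and the windows of CDH2 and the downstream one of DSC2, which hold none of these letters, are not printed. JUP has a start at chr17:41786662-41786961 and another at chr17:41785927-41786226, both on the minus strand, and the windows of DSP at chr6:7541421-7541720 and DSG2 at chr18:31497927-31498226 are on the plus strand. DSC2 is at chr18:31102372-31102671 on the minus strand and CTNNB1 at chr3:41199255-41199554 on the plus strand.
JUP, upstream start: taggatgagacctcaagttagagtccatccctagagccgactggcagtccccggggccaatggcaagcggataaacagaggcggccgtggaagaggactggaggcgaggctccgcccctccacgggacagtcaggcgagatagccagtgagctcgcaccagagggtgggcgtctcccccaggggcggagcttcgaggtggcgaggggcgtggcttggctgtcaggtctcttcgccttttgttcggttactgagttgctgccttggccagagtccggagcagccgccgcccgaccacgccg
JUP, downstream start: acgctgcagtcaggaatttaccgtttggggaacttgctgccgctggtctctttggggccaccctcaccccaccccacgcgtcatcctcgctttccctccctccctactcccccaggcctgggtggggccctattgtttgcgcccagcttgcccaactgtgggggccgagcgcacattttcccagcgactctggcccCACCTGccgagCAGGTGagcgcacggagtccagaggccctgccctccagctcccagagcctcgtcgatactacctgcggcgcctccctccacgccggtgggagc
DSP: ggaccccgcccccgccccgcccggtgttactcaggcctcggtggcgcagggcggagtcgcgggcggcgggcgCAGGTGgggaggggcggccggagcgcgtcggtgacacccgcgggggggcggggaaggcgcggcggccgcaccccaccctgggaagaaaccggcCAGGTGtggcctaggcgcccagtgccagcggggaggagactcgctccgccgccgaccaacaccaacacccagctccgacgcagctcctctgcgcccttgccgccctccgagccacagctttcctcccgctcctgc
DSC2, upstream start: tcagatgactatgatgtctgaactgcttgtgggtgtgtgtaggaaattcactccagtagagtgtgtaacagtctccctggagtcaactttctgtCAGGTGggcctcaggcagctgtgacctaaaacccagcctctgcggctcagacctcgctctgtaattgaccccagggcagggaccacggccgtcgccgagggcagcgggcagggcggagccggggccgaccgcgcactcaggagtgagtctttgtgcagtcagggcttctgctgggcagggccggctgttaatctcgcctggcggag
DSG2: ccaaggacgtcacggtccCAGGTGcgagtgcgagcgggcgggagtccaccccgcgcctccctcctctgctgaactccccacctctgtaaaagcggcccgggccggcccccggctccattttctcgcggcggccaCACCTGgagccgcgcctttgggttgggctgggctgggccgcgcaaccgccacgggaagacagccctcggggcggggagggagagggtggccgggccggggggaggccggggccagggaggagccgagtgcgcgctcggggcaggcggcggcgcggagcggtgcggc
CTNNB1: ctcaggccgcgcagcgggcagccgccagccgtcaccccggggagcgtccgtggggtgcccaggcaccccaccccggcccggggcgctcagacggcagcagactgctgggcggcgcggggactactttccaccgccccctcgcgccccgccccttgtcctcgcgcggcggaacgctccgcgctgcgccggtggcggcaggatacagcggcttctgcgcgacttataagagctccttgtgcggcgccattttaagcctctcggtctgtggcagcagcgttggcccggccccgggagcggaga

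The searched letters occurred in 4 of the 9 windows found for 6 of the genes, CDH2, JUP, CTNNB1, DSP, DSC2 and DSG2, and in 20.6% of all 35116 promoter windows in the table. JUP had none at its upstream start and 2 at its downstream start, 54 and 43 bases before it. DSP had 2, at 178 and 85 bases before its start, DSG2 had 2, at 232 and 116 bases, and DSC2 had 1, at 156 bases before its upstream start and none at its downstream start. CTNNB1 had none, nor did either window of CDH2. The count of CpG was 23 and 19 in the windows of JUP, 37 in DSP, 36 in DSG2, 39 in CTNNB1, 15 and 22 in DSC2, and 23 and 4 in CDH2, against a median of 14 over all windows. A match of letters is a description and shows no binding, and a part of ZEB1, SNAI2 or other repressors in the differences was not tested.

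The control arrays of both lines differed for 9 of the 10 genes. Lower in MDA-MB-231 than in MDA-MB-453 were 7 of them, CDH1, CDH2, CDH3, JUP, DSP, DSC2 and PKP3, where 26.9% of all genes were lower, and 2 were higher, CTNNB1 and DSG2, where 26.0% of all genes were higher. Relative to the floor of the MDA-MB-231 controls, MDA-MB-453 was at least 13.4-fold higher in CDH1 (limma adjusted p = 1.79e-06), at least 9.34-fold in PKP3 (2.62e-06), at least 3.34-fold in CDH2 (7.87e-05) and at least 2.52-fold in CDH3 (4.30e-04). JUP differed by -5.54 ± 0.24 (MDA-MB-231 minus MDA-MB-453), DSC2 by -1.86 ± 0.23 and DSP by -1.57 ± 0.23. CTNNB1 was higher in MDA-MB-231 by 1.46 ± 0.23 and DSG2 by 1.38 ± 0.21, and the limma adjusted p-values of these 5 genes were 6.81e-04 or lower. CDH11 was not detected in either control arm. These calls are those of the tested probe. The other kept probe of DSP differed by 0.45 between the lines (limma adjusted p = 0.112), the opposite sign. That of PKP3, not detected in MDA-MB-453, differed by 0.02 (0.949), and a CTNNB1 probe detected on 2 arrays by 0.20 (0.448). The other JUP probes differed by -2.07 and -2.20. The remaining kept probes, of CTNNB1, DSC2 and DSG2, differed by 1.62, -0.97 and 1.15 and passed the test. MDA-MB-453 has 1 control array, which is assumed to vary like the MDA-MB-231 arrays. Under median scaling the median of all genes stood at 0.15 in this contrast and the split of all calls went from 3386 higher and 3509 lower to 4039 and 2750, with the same 9 genes called.

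Set side by side, the hairpin arms of both lines differed unlike each other for most of these genes. In MDA-MB-453, differences between shRNA-3 and control were 0.34 for JUP, -0.03 for CDH11, which was below background there, 0.15 for CDH1, 0.07 for CDH3, 0.80 for DSP, -0.07 for both DSC2 and DSG2 and 0.31 for CTNNB1. Their median with CDH2 and PKP3 was 0.11, against 0.02 over all genes. The difference of the effects, MDA-MB-231 minus MDA-MB-453, passed the test for 7 of the 10 genes, where 13.6% of all genes passed. The fitted difference was 7.33 ± 0.29 for CDH11 and 5.36 ± 0.34 for JUP (limma adjusted p = 1.28e-05 and 5.88e-05). For CDH11, CDH1, CDH2 and PKP3 at least 1 arm in it was below detection, and for JUP 1 control array, so these fitted values are not exact sizes. CDH2 went the other way, at -1.57 ± 0.32 (limma adjusted p = 0.0148). DSC2, DSP, CDH1 and PKP3 differed by 1.62, 1.51, 1.43 and 1.11 (limma adjusted p = 0.0147, 0.018, 0.0322 and 0.0488). DSG2, CTNNB1 and CDH3 did not pass, with intervals of -0.03 to 1.35, -1.25 to 0.21 and -0.54 to 1.07. Without MDA-MB-231 control replicate 1 the test kept 2 of the 7, CDH11 and JUP, and without control replicate 2 it kept 4, these and DSP and DSC2. Median scaling, which puts the median of all genes at 0.26 in place of 0.02 in MDA-MB-453 and at -0.35 in place of -0.02 in this contrast, kept CDH11, JUP, CDH2 and DSC2, put DSP in MDA-MB-453 at 1.19, and split all calls into 688 higher and 2083 lower in place of 950 and 816. It turned the 196 higher and 203 lower genes at 2-fold in MDA-MB-453 into 681 and 46. The smaller differences also depended on other choices. CDH1 missed the threshold with an offset of 50 (0.64) and without the filter on dim probes, PKP3 without that filter, with the mean of its probes (0.67) and on its other probe (0.22), DSC2 on its other probe (0.87), and DSP with the mean of its probes (0.49) and on its other probe, where the sign turned (-0.53). Both contrasts use the same control arrays.

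Genes that lie next to each other were read together, since CDH1 and CDH3 are neighbours on chromosome 16, CDH11 lies on the same chromosome, and CDH2, DSC2 and DSG2 lie near each other on chromosome 18. Of the 20 tested genes nearest to CDH1, 1 rose and 9 fell in MDA-MB-231, with a median of -0.42, while CDH1 rose. Around CDH11 1 of 20 rose and 5 fell, with a median of -0.02 and none as far from 0 as CDH11. Around JUP 4 of 20 rose and 5 fell, with a median of -0.06, and the highest neighbour, KRT19, a keratin of simple epithelium, was at 4.48. DSP and DSC2 also exceeded all 20 of their neighbours, whose medians were -0.12 and -0.06. CDH1, too, lay above all 20 of its own. By contrast, 10 of the 17 neighbours of PKP3 near the end of chromosome 11 rose, their median was 0.65, and its own difference of 0.44 lay below that. The part of such regional shifts in the differences of single genes was not tested.

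**Figure D4:**
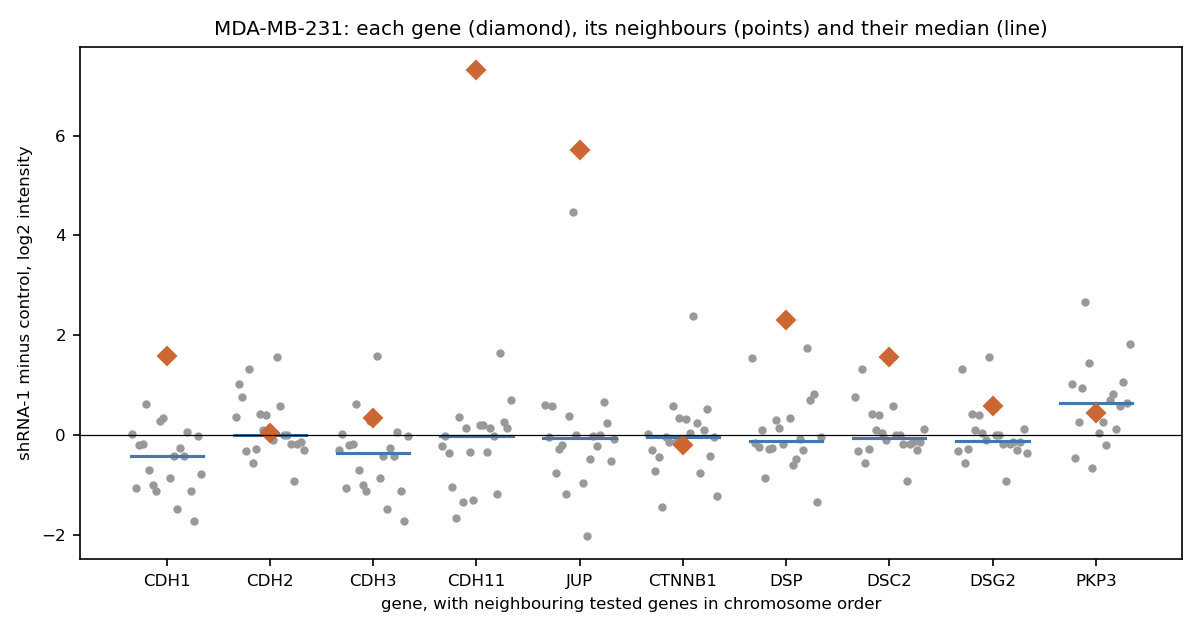
Difference between the MDA-MB-231 arms in log2 intensity (y axis) for each gene (diamond) and its nearest tested genes in chromosome order, up to 10 on each side (points), with their median (line). CDH1, CDH11, JUP, DSP and DSC2 lie above all their neighbours, and PKP3 lies below the median of its own.

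Profiles over the 6 arrays gave different companions for JUP and CDH11. By Euclidean distance between log2 intensities, each centred on its own mean, the 5 genes nearest to JUP were GPRC5C, an orphan receptor (distance 0.71), KRT19 (1.25), MYO5C, a class V myosin of epithelial cells (1.44), ZNF467, a zinc finger protein (1.62) and BST2, an interferon-induced membrane protein (2.00). Like JUP, they were lower on the MDA-MB-231 controls than on the shRNA-1 arrays and both MDA-MB-453 arrays, a likeness that the search itself selects. GPRC5C had means of 4.54 and 9.88 in MDA-MB-231 and read 10.28 and 10.32 in MDA-MB-453. Centring leaves out the level itself, and KRT19 and BST2 had MDA-MB-231 control means of 7.71 and 6.91. The nearest to CDH11 were CD74, which chaperones MHC class II molecules (0.34), the adhesion receptor ADGRF5 (0.47), SPANXD (0.57), SPANXC (0.82) and CST1, a cystatin (1.10), each high only on the shRNA-1 arrays. SPANX genes are near-identical copies whose probes may not tell them apart.

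The other adhesion genes were counted in the same way in MDA-MB-231, where 19.5% of all genes rose and 19.7% fell, and the counts of these short lists are read as descriptions. Of 4 other cadherins detected, CDH20 rose by 0.53 and CDH24 fell from 5.18 to below detection, at least 1.32-fold, and 12 of the 16 annotated were not detected on enough arrays to test. Among 11 other catenins and actin linkers 2 rose and 1 fell: the alpha-catenin CTNNA1, which links cadherin complexes to actin, rose by 0.67 ± 0.17 and the actin cross-linker ACTN4 by 0.80 ± 0.20, while the armadillo protein PKP4 fell by 1.02 ± 0.17. The median of that list was 0.08. Among 5 other desmosomal genes PPL, periplakin, which binds keratin filaments at the plaque, was at least 10.0-fold higher (fitted difference 3.57; limma adjusted p = 2.09e-06), PKP2, a plakophilin, rose by 0.95 ± 0.17 and EVPL, envoplakin, the partner of periplakin, fell by 0.65 ± 0.16, around a median of -0.11. Of 4 nectins, cell adhesion molecules that bind afadin, NECTIN2 rose by 1.14 and NECTIN3 fell by 0.85.

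Genes of the beta-catenin pathway and of cadherin control were read with the same test and against the same shares of all genes, to which the 4 and 2 of 16 and the 1 and 2 of 7 below lie close. Of 16 beta-catenin pathway genes 4 rose and 2 fell, around a median of 0.07. CTNNBIP1, an inhibitor that keeps beta-catenin from its partners, rose by 2.41 ± 0.16, AXIN2, a scaffold of the destruction complex and itself a target of the pathway, by 1.95 ± 0.19 and WNT5A, a ligand, by 1.10 ± 0.17. GSK3B, the kinase that marks beta-catenin for destruction, fell by 1.17 ± 0.18, and CCND1 and LEF1, also known targets, stood at differences of -0.13 and -0.41 (limma adjusted p = 0.578 and 0.0853). Of the listed repressors and inducers of cadherins, 7 of 13 were tested. SNAI1, TWIST1, TWIST2, TCF4, OVOL1 and ESRP2 were detected on too few arrays. Known repressors of CDH1 went both ways: ZEB1 fell by 1.24 ± 0.18 and SNAI2 by 0.76 ± 0.22, while TCF3 rose by 0.51 ± 0.17. The median of the 7 was -0.23. ZEB2 and ESRP1 differed by -0.40 and -0.23 without passing the test (limma adjusted p = 0.128 and 0.31). The inducers GRHL2 and OVOL2 differed by -0.02 and 0.34 without passing the test. Of 6 genes of cadherin turnover 4 rose and 0 fell, around a median of 0.69: the membrane protease MMP14 by 1.36 ± 0.17, MMP7, which cuts E-cadherin, by at least 1.76-fold, the gamma-secretase subunit NCSTN by 0.86 ± 0.17 and ADAM15 by 0.48 ± 0.17. In MDA-MB-453 0 genes of these 7 lists were at 2-fold or more in either direction.

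**Figure D5:**
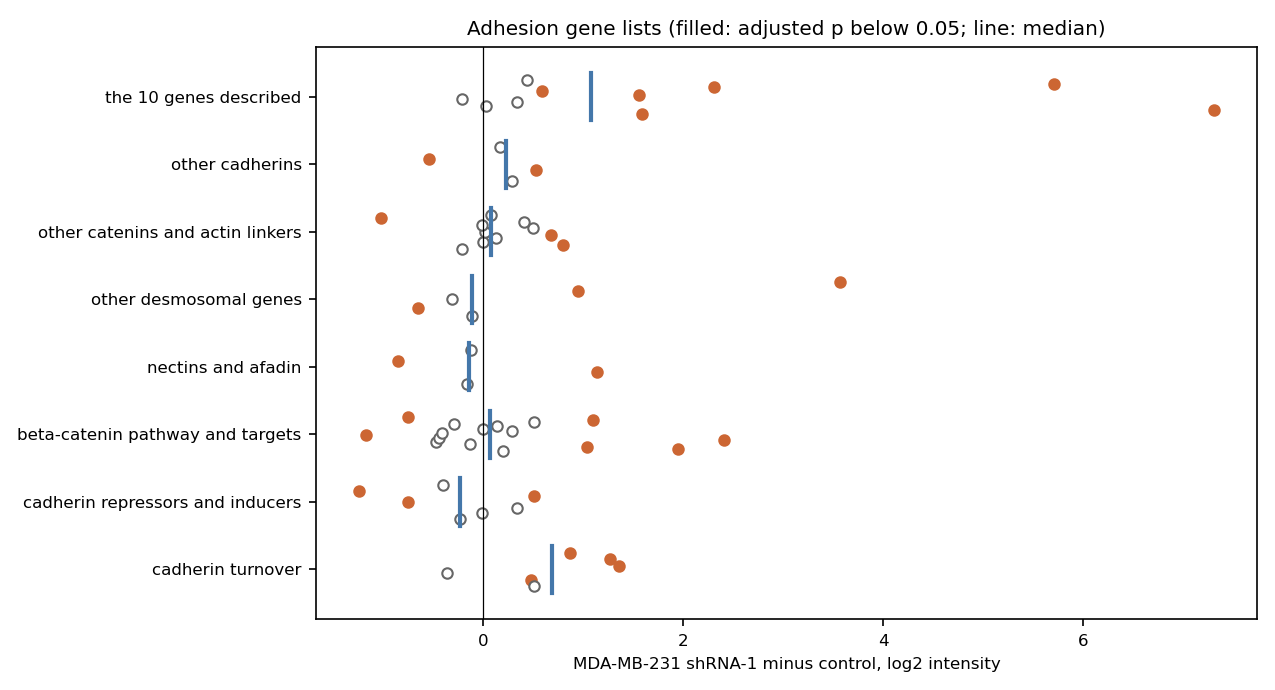
Difference between the MDA-MB-231 arms in log2 intensity (x axis) for the tested genes of each adhesion list (y axis), with filled points for adjusted p below 0.05, open points otherwise, and a line at the list median. The median of the 10 genes described, which were taken with earlier results known, is 1.08, and the 2 points above 5 are JUP and CDH11.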

How the data were processed

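RNA levels were read on 6 Illumina bead arrays. The probe intensities deposited by the authors carry no normalisation between arrays, and the detection p-value of each probe and array is given per the file headers. The software that made them is not given in the sources used here. The authors' processed values equal quantile-normalised log2 intensities within 5.26e-09, by comparison of both deposited tables, and served as an alternative. Intensities were corrected, quantile-normalised and log2-transformed with neqc (normexp on the detection p-values, offset 16; limma 3.58.1, R 4.3.3). Such normalisation sets the distribution of every array equal, so a shift of most genes in 1 arm would not be seen.

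Of 48107 probes, 30113 had 1 gene symbol in the platform annotation, 8 several and 17986 none, and 30074 matched RefSeq by Entrez ID with 0 symbols changed. Probes detected on at least 2 of 6 arrays were kept (17668), and the probe of highest mean stood for each of 13022 genes. A probe detected in only 1 arm or line was kept through that arm or line alone, which favours its call. One limma model with the 4 group means over all 6 arrays gave 3 contrasts: the MDA-MB-231 arms, the difference of effects between the lines, and the control arrays of the lines. P-values were adjusted by Benjamini-Hochberg over all genes, with a threshold of 0.05. The residual degrees of freedom were 2, with 6.52 prior ones. The MDA-MB-453 arms, 1 array each, were compared without a test, and 2-fold was the size counted. Where no array of a group detected a probe, a fold is given as "at least", against the mean over that group's arrays of the higher of the lowest detected signal and the probe's own. Alternatives were other background corrections and scalings, filters, probe rules, the authors' values, a replicate block and leaving out each array. A test of each kept probe was added after the data were seen.

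The genes and lists were chosen with earlier results of these data known. Named are all 10 genes, up to 4 called genes of largest difference per list, and the 5 nearest profiles of JUP and CDH11. CCND1, LEF1, GRHL2, OVOL2, ZEB2 and ESRP1 were named after their values were seen. HLA-DRB3 and HLA-DRB4 were left out of the chromosome order, as they lie on alternate haplotypes. CDH4, CDH13, AFDN and TCF7 of the lists were not analysed here.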

Additional observations from a re-analysis of the deposited data

Results flagged for a closer look

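For 26 named genes the difference between hairpin and control arrays was not the same in both lines by limma's test of the difference itself (adjusted p below 0.05). Of all tested genes 13.6% passed this test. The genes from the lists were named for a large called difference in MDA-MB-231. That difference is part of this contrast, so the choice favoured their passing, and the count of 26 is a description. Values are log2 differences in MDA-MB-231 minus those in MDA-MB-453, where 1 array stands on each side and the hairpin is another one. They are fitted values and no exact sizes for the many genes with an arm below detection: in MDA-MB-231 CDH11, CDH1, PKP3, CDH2, PPL, MMP7, SPDEF, AGR2, FOXA1 and PDGFRB, and in MDA-MB-453 also PKP2, ZEB1, MMP14, PLAU, ACTA2, PECAM1, CD14, EPHA2 and S100A4 on at least 1 array. Of the adhesion genes described, CDH11 was at 7.33, JUP at 5.36, DSC2 at 1.62, DSP at 1.51, CDH1 at 1.43, PKP3 at 1.11 and CDH2 at -1.57. Among other desmosomal genes PPL was at 3.49 and PKP2 at 1.11. In the beta-catenin list CTNNBIP1 was at 1.92, AXIN2 at 1.39 and WNT5A at 1.31. The repressor ZEB1 was at -1.20, and the proteases MMP7 and MMP14 were at 1.37 and 1.25. Among the MDA-MB-231 markers S100A4 was at 8.33, EPHA2 at 1.08 and PLAU at 1.04. Among those of MDA-MB-453 AGR2 was at 4.98, SPDEF at 4.45, KRT19 at 4.45 and FOXA1 at -4.05. PDGFRB and ACTA2 of the stromal list were both at 1.77, and CD14 and PECAM1 of the blood and endothelial list at 3.50 and 3.25.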

How the results depend on the processing

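CDH11 and JUP were called in MDA-MB-231 and for the difference of effects under every alternative that tested them, and the 9 of 10 genes called between the control arrays under every alternative but the filter on detection on all 6 arrays, which tests 4 of the 10 and called those 4 (tested probes only). That filter, on 8952 genes, gave 3 of the 10 called in MDA-MB-231, 2 for the difference of effects, and 1070 genes for that difference in place of 1766. Median scaling gave 2771 genes and 4 of the 10. Genes at 2-fold in MDA-MB-453 numbered 399, and 201 without background correction, 183 with offset 50, 727 under median scaling and 252 with the filter. Directions turned for CDH2 in MDA-MB-231 (-0.0017 without background correction and -0.13 to 0.20 when 1 array was left out, lowest without shRNA-1 replicate 1), and for the difference of effects of CDH3 (-0.0405, median scaling), CTNNB1 (0.11) and DSP (-0.53), the last 2 on another probe; the causes were not tested. Leaving out each MDA-MB-231 array gave 2893 to 5246 genes in MDA-MB-231 (5103 with all), 726 to 2678 for the difference of effects and 5360 to 7653 between the lines, and 5 to 6, 2 to 7 and 9 of the 10 genes. The lowest counts came without control replicate 2 (2893 and 726), and without control replicate 1 they were 3305 and 885, with 1 array then assumed to vary like the others. Without shRNA-1 replicate 2 the difference of effects gave 2678. With the replicate block 4919, 1389 and 6300 genes were called, and 6, 6 and 9 of the 10, PKP3 losing its difference of effects; deviations of same-numbered arrays correlated at 0.07 over 2 pairs, so the numbers are not shown to pair. Of 132 values of single genes in MDA-MB-231, 122 kept direction and call. They include the 10 values of the fit on only the 4 MDA-MB-231 arrays, which equals the main fit by design. CDH3, not called in the main fit, was called without shRNA-1 replicate 1 (0.57), where DSG2 was lost, so the set of genes called there was not the main one. The MDA-MB-453 arms, with 1 array each, add no residual degrees of freedom.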
